A study of Mus musculus with 15 samples.

Results

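Interferon-stimulated genes are the genes that a cell switches on when it senses interferon. Here 33 of them were followed across mouse mammary tumour spheres treated with PHA, ICG or both agents. The members were chosen by symbol, as a list of type I response genes, nucleic acid sensors and antigen processing genes, and each gene was read on its probe set with the highest mean. Of the 33 listed genes, 31 were measured, among 18193 genes in all. Isg15 is carried here by a probe set shared with another gene and has no value of its own, and no probe set was matched to Ifi44. The 31 genes comprise 17 antiviral effectors, 5 sensors, 4 transcription factors and 5 antigen processing genes and guanylate-binding proteins (GBPs). Trim25, a ubiquitin ligase that activates the sensor Rigi, is counted with the sensors throughout.

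Interferons bind receptors whose JAK kinases phosphorylate STAT proteins. Stat2 then joins Irf9 in a complex that binds a short promoter element, the interferon-stimulated response element, and switches on effectors such as the Ifit, Oas and Mx genes. Sensors of viral RNA and the factor Irf7 are themselves induced, so that the response can amplify its own trigger, and in mammary tumours both malignant cells and infiltrating leukocytes can run it.

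The samples were 15 arrays of RNA from spheres of FVB/N mice. All 5 groups share the genotype WAPCre-DNbcatn;HGF, in which Cre is driven by the promoter of whey acidic protein, active in alveolar mammary cells, and which carries alleles of β-catenin and of HGF, the ligand of the receptor MET. Tumour cells had been grown without attachment for 7 days before 24 h of treatment. The study asked how inhibitors of the Wnt and MET pathways act alone and together, with DMSO, their solvent, as the control. The titles carry a code, JAH or JHO. The 9 JAH arrays are 3 each of DMSO, PHA and ICG, and the 6 JHO arrays are 3 each of DMSO and PHA+ICG. Doses and full compound names are not in the labels, nor is it said whether replicates were separate cultures, so p-values measure the spread between arrays, whose number limits the precision.

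Before any comparison, 2 JHO arrays stood apart. The mean log2 value of 19 leukocyte markers lay between 10.16 and 10.96 on the 9 JAH arrays, and between 10.74 and 10.96 on the DMSO arrays among them. It was 10.25 on DMSO (JHO) replicate 1 but 8.20 and 8.17 on replicates 2 and 3. Under PHA+ICG it was 9.26 on replicate 1 but 7.44 and 7.38 on replicates 2 and 3. Ptprc, which encodes CD45, the pan-leukocyte antigen, read 10.04 on DMSO (JHO) replicate 1 against 6.79 and 6.64 on the other two. The mean of 12 mammary epithelium markers (keratins, Epcam, Cdh1 and others) was 8.06 to 8.47 on 13 arrays and 7.29 and 7.27 on PHA+ICG replicates 2 and 3. Spread also differed by code, with a median residual SD of 0.107 on JAH arrays and 0.236 on JHO arrays, so each treatment was tested against DMSO of its own code, with limma and Benjamini-Hochberg adjustment over all 18193 genes. The comparison of the DMSO groups spans both codes and was fitted with a single spread. Its SEs and adjusted p-values thus assume an equal spread, although the members' median SD was 0.08 in DMSO (JAH) and 0.32 in DMSO (JHO). A gene is said to rise or fall where the adjusted p is below 0.05.

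**Figure D1:**
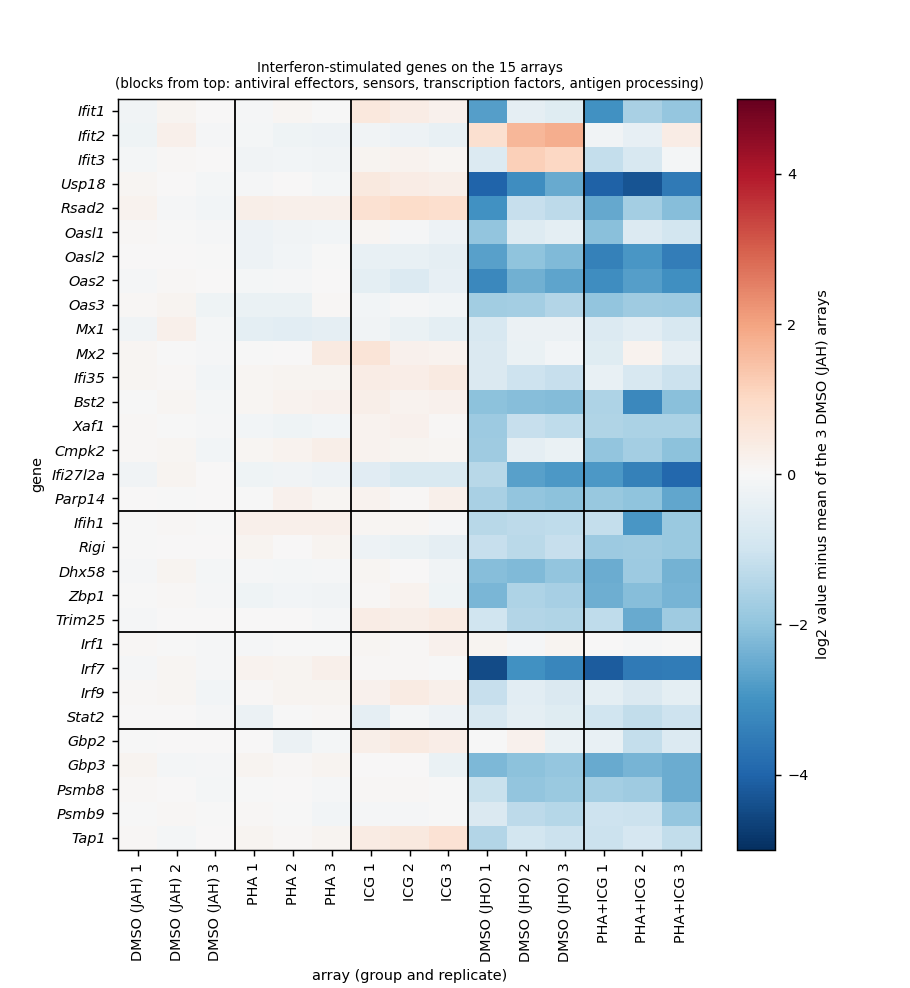
Log2 value of each of the 31 measured genes (rows, in blocks by role) on each of the 15 arrays (columns), minus the mean of the 3 DMSO (JAH) arrays. The 6 JHO columns are mostly below the JAH columns, and the PHA and ICG columns differ from DMSO (JAH) by at most 0.84 in group mean.

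More of these genes differed between both vehicle groups than under any treatment. In DMSO spheres of code JHO, 22 of the 31 genes were lower than in DMSO spheres of code JAH and 1, Ifit2, was higher, where 12.5% of all genes were lower and 13.5% higher. The median difference of the 31 genes was −1.33 on the log2 scale, against 0.06 for all genes. Antiviral effectors fell in 10 of 17 cases with 1 rise, sensors in 5 of 5, transcription factors in 3 of 4 and antigen processing genes and GBPs in 4 of 5. The labels of both groups are the same apart from the title code, so the code cannot be told apart from any other difference in origin, culture or array handling. In bulk RNA, fewer cells of a type and less RNA per cell cannot be told apart either.

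Among the transcription factors, Irf7, the factor that amplifies interferon production, had log2 values of 10.14, 10.31 and 10.14 in DMSO (JAH) and 5.71, 7.17 and 6.93 in DMSO (JHO). Every JHO array was below every JAH array, and replicate 1 was the lowest. The difference was −3.59 ± 0.35 (SE, n = 3 arrays a group, adjusted p = 0.000474, limma), a 12.1-fold lower level. Stat2, which binds Irf9 in that complex, had 7.35, 7.35 and 7.27 against 6.54, 6.84 and 6.71. Its groups did not overlap and its difference was −0.62 ± 0.11 (adjusted p = 0.00573), while its other probe set differed by −0.02. Irf9, its DNA-binding part, differed by −0.80 ± 0.17 (adjusted p = 0.0127), a call lost without DMSO (JAH) replicate 1 (adjusted p = 0.0529) or replicate 2 (0.058). Irf1 differed by 0.07 ± 0.10 (adjusted p = 0.631), with overlapping groups.

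Among the effectors, Usp18, a protease that removes ISG15 from proteins and damps receptor signalling, had 10.97, 10.89 and 10.81 in DMSO (JAH) and 6.9, 7.8 and 8.37 in DMSO (JHO). The groups did not overlap, and the difference was −3.20 ± 0.33 (adjusted p = 0.000619), or 9.19-fold. Oas2, a synthetase of the 2-5A messenger that activates RNase L, had 9.74, 9.84 and 9.79 against 6.58, 7.37 and 7.14. All JHO values were lower, and the difference was −2.76 ± 0.20 (adjusted p = 0.000126). Its relative Oasl2 had 9.39, 9.41 and 9.35 against 6.68, 7.38 and 7.16. The groups were again apart, with a difference of −2.31 ± 0.18 (adjusted p = 0.000174).

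Ifi27l2a, a small mitochondrial and nuclear envelope protein gene, had 9.34, 9.64 and 9.53 in DMSO (JAH) and 8.11, 6.80 and 6.63 in DMSO (JHO). Here replicate 1 was the highest JHO array, and the difference was −2.32 ± 0.36 (adjusted p = 0.00372). Bst2, or tetherin, which holds budding virions at the cell surface, had 11.81, 11.92 and 11.71 against 9.75, 9.68 and 9.64. The 3 JHO arrays lay close together at the lower level, a difference of −2.12 ± 0.10 (adjusted p = 2.54e-05). Rsad2, the antiviral enzyme viperin, fell by 1.83 ± 0.46 (adjusted p = 0.0256). That call was lost when any of the 3 DMSO (JAH) arrays was left out (adjusted p 0.0712 to 0.0894), and the difference was −1.22 without DMSO (JHO) replicate 1.

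The Ifit genes encode RNA-binding inhibitors of viral translation, and only Ifit2 among them passed. Ifit1 had 8.59, 8.89 and 8.76 in DMSO (JAH) and 6.00, 8.28 and 8.16 in DMSO (JHO). The groups were apart, but replicate 1 lay far below replicates 2 and 3, and the difference of −1.26 ± 0.56 did not pass (adjusted p = 0.145). Ifit2 had 6.5, 6.98 and 6.68 against 7.54, 8.37 and 8.55. All 3 JHO values were the higher ones, and the difference was 1.43 ± 0.27 (adjusted p = 0.00757). Ifit3 had 6.64, 6.79 and 6.73 against 6.03, 7.92 and 7.75, so that replicate 1 was below and the others above the JAH arrays (0.51 ± 0.46, adjusted p = 0.456).

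All 5 genes of the sensor group, Trim25 included, fell by 1.22 to 2.09 on the log2 scale. Dhx58 (LGP2), a regulator of the RNA sensors, showed the widest gap at −2.09 ± 0.12 (adjusted p = 4.64e-05), followed by Zbp1, which senses left-handed nucleic acid, at −1.82 ± 0.19. The other Dhx58 probe sets, with lower means of 4.89 and 4.17, differed by −0.09 and −0.69. Ifih1 (MDA5), Trim25 and Rigi (RIG-I, listed as Ddx58 in the annotation) differed by −1.33 ± 0.09, −1.34 ± 0.15 and −1.22 ± 0.10. Among antigen processing genes, Psmb8, a catalytic subunit of the immunoproteasome, had 11.30, 11.28 and 11.16 in DMSO (JAH) and 10.12, 9.29 and 9.39 in DMSO (JHO). The groups were apart and the difference was −1.64 ± 0.21 (adjusted p = 0.00171). Psmb9, its partner subunit, Tap1, a subunit of the peptide transporter, and Gbp3 fell by 1.15 ± 0.19, 1.16 ± 0.15 and 2.08 ± 0.12, while Gbp2 differed by −0.04 ± 0.15 (adjusted p = 0.868).

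**Figure D2:**
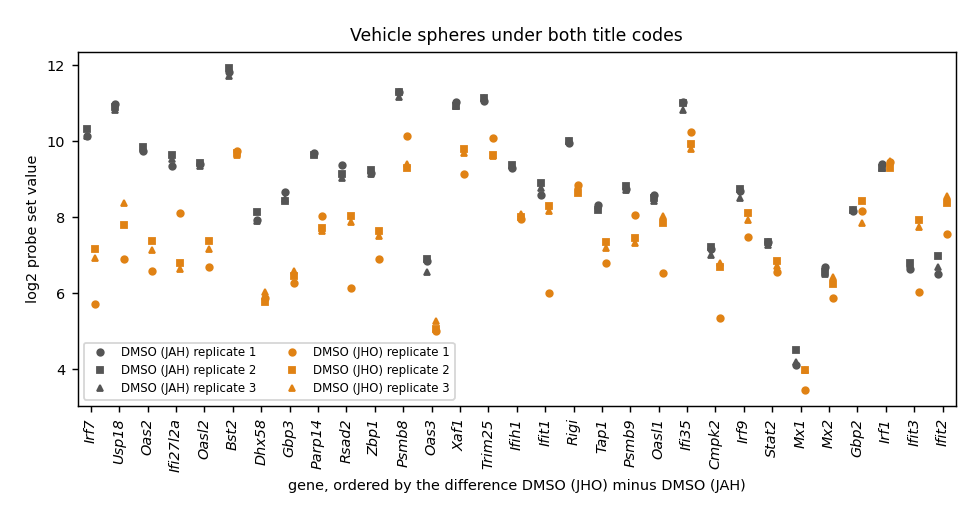
Log2 probe set value (vertical axis) of the 31 genes (horizontal axis, ordered by the difference between codes) on the 3 DMSO (JAH) arrays in grey and the 3 DMSO (JHO) arrays in orange; symbols mark replicates 1 to 3. In 27 genes every JHO array lies below every JAH array, and in Ifit2 every JHO array lies above. The orange circle of replicate 1 is the lowest JHO array in 20 genes and the highest in 8. It is far below the others in Ifit1, Ifit3, Rsad2, Oasl1, Cmpk2, Irf7 and Usp18, and far above them in Ifi27l2a.

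In 27 of the 31 genes (87.1%) all DMSO (JHO) arrays were below all DMSO (JAH) arrays, as in 20.2% of all genes, and in 1 gene all were above, as in 23.7%. Of the 18 other probe sets that carry called members, 17 differed in the same direction as the chosen one. The exception was a Tap1 probe set at 0.06. Agreement in direction was not always agreement in size. Other probe sets of Xaf1 (−0.07), Dhx58 (−0.09) and Tap1 (−0.09) differed little, with chosen ones at −1.42, −2.09 and −1.16. Those of Rsad2 (−2.0) and Trim25 (−1.67) included differences larger than the chosen −1.83 and −1.34. Leukocyte markers moved with the genes: 13 of 19 were lower in DMSO (JHO) and none higher, with a median difference of −2.30. Their part in the result was not tested. Fibroblast markers moved the other way, with 8 of 12 higher and 1 lower. DMSO (JHO) replicate 1 had leukocyte markers at 10.25, above 8.20 and 8.17 on the others and below 10.74 to 10.96 in DMSO (JAH). Its member mean was 7.27, against 7.70 and 7.69 on the others. The mean of 19 other genes of nucleic acid sensing and interferon induction was higher there, 8.04 against 7.68 on both others. Without that array, 25 of the 31 genes were lower and 2 higher than in DMSO (JAH), against 18.8% and 24.1% of all genes.

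Promoter sequences show the element in a part of the members. In the 250 bases before the transcription start, the core GAAANNGAAA, searched on both strands, was found in 9 of the 25 members that have a promoter window (36%), against 3.46% of the 27025 genes with a window. Counted by windows it was 9 of 29 (31%), against 2.98% of 32851. The members with a core were Isg15, Ifit1, Ifit3, Bst2, Oas3, Rsad2, Stat2, Gbp2 and Gbp3. None of the 3 sensors with a window had one. The members were chosen as interferon-stimulated genes, so a higher share than among all genes describes that choice. The STAT site TTCNNNGAA, which is palindromic in its fixed bases and was searched the same way, was found in 4 of 29 member windows (13.8%) and 7.02% of all windows, the 4 being those of Bst2, Irf1, Psmb8 and Ifit2. For 8 of the 33 members the tables hold no window.

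The promoter stretches of 4 members are printed because they show the element in genes that behaved differently between the vehicle groups: Ifit1 and Ifit3 varied widely within JHO, and Bst2 and Gbp3, picked after their values were seen, were evenly lower. They run 5′ to 3′ on the strand of the gene, from RefSeq with build GRCm38.p6, and capitals mark the cores, which read TTTC on the opposite strand. In Ifit1 (chr19:34640735-34640863, + strand) the stretch covers bases 154 to 26 before the start, and in Ifit3 (chr19:34583323-34583466, + strand) bases 206 to 63. In Bst2 (chr8:71537537-71537652, − strand) it covers bases 180 to 65, and in Gbp3 (chr3:142559949-142560043, + strand) bases 95 to 1. The start meant is that of the promoter window. The annotated Ifit3 gene begins at 34583119, so its stretch lies inside the gene, and the Gbp3 gene begins at 142560016, inside its stretch. In Bst2 and Gbp3 both cores overlap in a single run.
Ifit1: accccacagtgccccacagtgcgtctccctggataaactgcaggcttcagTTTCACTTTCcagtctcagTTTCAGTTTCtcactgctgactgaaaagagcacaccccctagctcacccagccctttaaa
Ifit3: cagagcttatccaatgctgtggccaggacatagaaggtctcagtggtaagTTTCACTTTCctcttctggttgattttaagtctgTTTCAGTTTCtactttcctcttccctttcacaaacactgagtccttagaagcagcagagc
Bst2: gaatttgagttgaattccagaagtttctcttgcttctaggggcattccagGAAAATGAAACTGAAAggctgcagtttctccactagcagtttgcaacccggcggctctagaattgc
Gbp3: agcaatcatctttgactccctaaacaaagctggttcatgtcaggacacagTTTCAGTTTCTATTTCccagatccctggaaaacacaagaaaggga
Each of these 4 stretches has 2 cores. A match is a description of the letters and not a measured binding site.

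Within the JHO vehicle group the genes varied more than others. The median SD of the 31 genes was 0.32 in DMSO (JHO) and 0.37 in PHA+ICG, where all genes had 0.18 and 0.25. On JAH arrays the same genes had a median SD of 0.05 to 0.09, close to all genes at 0.08 to 0.10. On DMSO (JHO) replicate 1 the mean of the 17 effectors was 6.90, against 7.58 on both other arrays. For the 5 antigen processing genes and GBPs it was 7.88, against 7.79 and 7.67. How many of all genes lie outside the other arrays there was not counted, so this is not shown to be particular to the members. Relative to the mean of the other two arrays, Ifit1 was at −2.22, Rsad2 at −1.82, Ifit3 at −1.81, and Oasl1 and Cmpk2 at −1.41. Ifi27l2a (1.39), Psmb8 (0.78), Psmb9 (0.67) and Trim25 (0.48) were instead above. PHA+ICG replicate 1 showed the same low Ifit1 and Oasl1 (−1.27 and −1.30) but a high Ifih1 (1.19) and Bst2 (1.11).

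**Figure D3:**
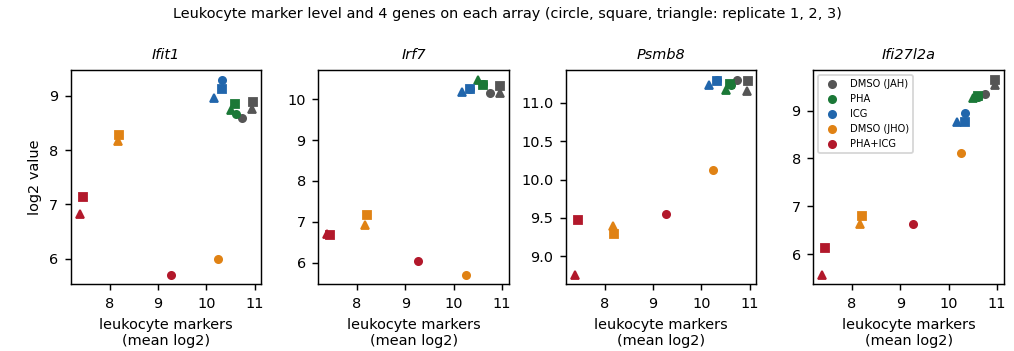
Log2 value of Ifit1, Irf7, Psmb8 and Ifi27l2a (vertical axes) against the mean log2 value of 19 leukocyte markers (horizontal axes) on the 15 arrays, coloured by group; circle, square and triangle are replicates 1, 2 and 3. DMSO (JHO) replicate 1, with leukocyte markers at 10.25, has the lowest Ifit1 (6.00) and Irf7 (5.71) of its group and the highest Psmb8 (10.12) and Ifi27l2a (8.11).

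ICG moved the genes both ways. Against DMSO (JAH), 9 of the 31 genes rose and 4 fell, where 11.9% of all genes rose and 15% fell, and the median difference was 0.04 against 0.03 for all genes. The share of all genes that rose depends on scaling: 2162 rose and 2734 fell as deposited, against 3446 and 2134 after centring each array on its median, where 11 members rose and 4 fell. Effectors gave 5 rises and 3 falls, sensors 1 of each, transcription factors 1 rise, and antigen processing genes and GBPs 2 rises. In 20 of the 31 genes the groups did not overlap, against 40.6% of all genes.

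Rsad2 changed most, from 9.37, 9.14 and 9.03 on the DMSO arrays to 9.96, 10.08 and 10.01 on those with ICG. All ICG arrays were above all DMSO arrays, by 0.84 ± 0.08 in the mean (adjusted p = 9.24e-05), a 1.79-fold rise. Tap1, which pumps peptides into the endoplasmic reticulum for class I presentation, had 8.32, 8.18 and 8.29 against 8.69, 8.75 and 9.00. The groups were apart and the rise was 0.55 ± 0.08 (adjusted p = 0.000969). Usp18 had 10.97, 10.89 and 10.81 against 11.39, 11.26 and 11.17. It rose by 0.38 ± 0.07 (adjusted p = 0.00417) with no overlap.

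The falls involved other effectors. Ifi27l2a had 9.34, 9.64 and 9.53 in DMSO and 8.94, 8.76 and 8.76 in ICG. All ICG values were lower, with a difference of −0.68 ± 0.08 (adjusted p = 0.00029), or 1.61-fold. Oas2 had 9.74, 9.84 and 9.79 against 9.32, 9.09 and 9.37. The groups were separate, with a difference of −0.53 ± 0.08 (adjusted p = 0.000962). Oasl2 had 9.39, 9.41 and 9.35 against 9.02, 9.01 and 8.93, again without overlap (−0.40 ± 0.07, adjusted p = 0.00183). The sensor Rigi had 9.96, 10 and 9.99 against 9.73, 9.66 and 9.55, and fell by 0.34 ± 0.06 (adjusted p = 0.00344).

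The other 6 rises were of 0.24 to 0.38. Ifi35 (0.38 ± 0.07), Gbp2 (0.36 ± 0.08) and Trim25 (0.36 ± 0.06), a ubiquitin ligase that activates RIG-I, kept their calls without any single array. Ifit1 had 8.59, 8.89 and 8.76 in DMSO and 9.29, 9.12 and 8.96 in ICG. Its groups were apart (0.38 ± 0.10, adjusted p = 0.0206), but the call was lost without DMSO replicate 1 (0.0625) or 3 (0.051) or ICG replicate 1 (0.0721) or 2 (0.0529). Bst2 rose by 0.24 ± 0.07 (adjusted p = 0.0322), a call lost without DMSO replicate 1 (0.0671) or 3 (0.111) or ICG replicate 1 (0.103) or 3 (0.0661). Irf9 rose by 0.29 ± 0.08 (adjusted p = 0.0209), a call lost without DMSO replicate 3 (0.0731) or ICG replicate 2 (0.0756).

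Irf7, Stat2 and Psmb8 did not pass under ICG. Irf7 had 10.26, 10.24 and 10.18 in ICG against 10.14, 10.31 and 10.14 in DMSO, with overlapping groups (0.03 ± 0.07, adjusted p = 0.798). Psmb8 had 11.30, 11.29 and 11.24 against 11.30, 11.28 and 11.16, which also overlapped (0.03 ± 0.06, adjusted p = 0.768). Stat2 had 6.87, 7.24 and 7.05 against 7.35, 7.35 and 7.27. All ICG values were lower, but the difference of −0.27 ± 0.11 did not pass (adjusted p = 0.0974). Among markers, 10 of 19 leukocyte markers fell under ICG and none rose, their mean per array being 10.16 to 10.33 against 10.74 to 10.96 in DMSO, and 10 of 12 fibroblast markers fell. Their part in these changes was not tested.

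PHA changed few of the genes. Of the 31 genes, 1 rose and 1 fell, where 3.14% of all genes rose and 7.07% fell, and 9 members (29%) had an unadjusted p under 0.05, as did 25.5% of all genes. The median difference was −0.04, against 0.02 for all genes. The split of all genes again moved with scaling, from 572 rises and 1286 falls as deposited to 1188 and 938 after centring and 897 and 1093 after quantile normalization, in which 3 and 2 members rose and 1 fell. In 14 of the 31 genes the groups did not overlap, against 31.6% of all genes.

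Mx1, a GTPase that blocks viral nucleocapsids, had 4.11, 4.51 and 4.19 in DMSO and 3.80, 3.73 and 3.82 in PHA. All PHA values were lower (−0.48 ± 0.11, adjusted p = 0.0229), at a low signal: the mean over all 15 arrays was 3.88, under the minimum of 5 of an alternative that does not test the gene. The call was lost without DMSO replicate 2 (−0.36, adjusted p = 0.0622) or any of the PHA replicates 1 (0.0657), 2 (0.0819) and 3 (0.0531). Ifih1 had 9.30, 9.38 and 9.33 against 9.59, 9.59 and 9.60, with no overlap (0.26 ± 0.06, adjusted p = 0.0326). Leaving out any of the 6 arrays lost that call, with adjusted p between 0.0636 and 0.0921.

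Rsad2 had 9.48, 9.43 and 9.45 in PHA, all above the DMSO arrays, but the difference of 0.28 ± 0.08 did not pass (adjusted p = 0.0685). Irf7, at 10.37, 10.34 and 10.47, was also above DMSO on every array without passing (0.20 ± 0.07, adjusted p = 0.107). Ifit1 had 8.67, 8.85 and 8.73, Stat2 had 7.03, 7.31 and 7.38, and Psmb8 had 11.23, 11.25 and 11.17. These 3 genes overlapped DMSO, with differences of 0.01 ± 0.10, −0.08 ± 0.11 and −0.03 ± 0.06. Under PHA 5 of 19 leukocyte markers fell and 1 rose, and 7 of 12 fibroblast markers fell.

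**Figure D4:**
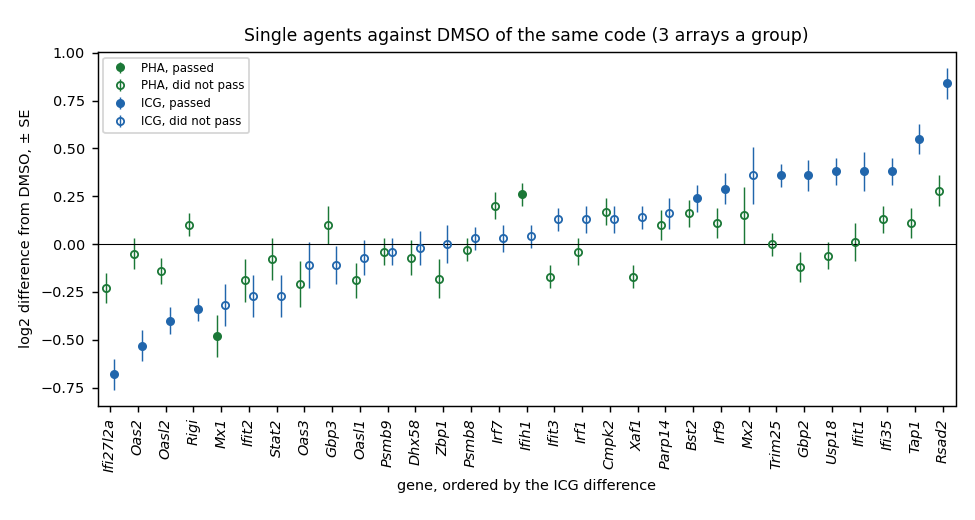
Log2 difference from DMSO (JAH) with its SE (vertical axis) for the 31 genes (horizontal axis, ordered by the ICG difference) under PHA in green and ICG in blue, 3 arrays a group; filled points had an adjusted p below 0.05. ICG has 13 filled points, from −0.68 (Ifi27l2a) to 0.84 (Rsad2), and PHA has 2, Mx1 at −0.48 and Ifih1 at 0.26.

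Both agents share their DMSO arrays, so the agents were also compared directly. PHA and ICG differed in 14 of the 31 genes (27.1% of all genes differed), with 5 higher and 9 lower in PHA (13.7% and 13.4% of all genes). Rsad2 was lower in PHA by 0.56 ± 0.08 on the log2 scale (adjusted p = 0.000822). Gbp2 (−0.48 ± 0.08), Usp18 (−0.44 ± 0.07), Tap1 (−0.44 ± 0.08), Ifit1 (−0.37 ± 0.10), Trim25 (−0.36 ± 0.06), Xaf1 (−0.31 ± 0.06), Ifit3 (−0.30 ± 0.06) and Ifi35 (−0.25 ± 0.07) were also lower in PHA. Oas2 (0.48 ± 0.08), Ifi27l2a (0.46 ± 0.08), Rigi (0.44 ± 0.06), Oasl2 (0.25 ± 0.07) and Ifih1 (0.21 ± 0.06) were higher. Leaving out single arrays lost some calls. Ifih1 lost its call without any one PHA array or ICG replicate 2 or 3 (adjusted p 0.0513 to 0.106). Ifi35 lost it without any one PHA array or ICG replicate 1 or 3 (0.054 to 0.0943). For Ifit1 this held for PHA replicate 1 or 3 and ICG replicate 1 or 2 (0.0552 to 0.0777). For Oasl2 it held for PHA replicate 2 or 3 and ICG replicate 3 (0.0534 to 0.0702). Of the 13 other probe sets of the 14 genes, 13 differed in the same direction. Irf7 differed by 0.17 ± 0.07 and Psmb8 by −0.06 ± 0.06, neither of which passed.

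In the JHO spheres treated with PHA+ICG, the genes were lower than in DMSO (JHO) in the median, by 0.29, where all genes were at 0.00. No member passed in the test without pairing (2.02% of all genes did, 0.478% higher and 1.54% lower), and 8 of 31 (25.8%) had an unadjusted p under 0.05, against 13.3% of all genes. In 7 genes the groups did not overlap, all lower in PHA+ICG, as were 11% of all genes, while 7.33% of all genes and none of the 31 were apart and higher. The labels state no pairing of the JHO arrays. The same-numbered ones deviated together and were treated as pairs, although numbers 2 and 3 also correlated across numbers (0.24 and 0.35). DMSO replicate 3 correlated more with PHA+ICG replicate 2 (0.35) than with replicate 3 (0.28). The correlations thus set number 1 apart but do not tell 2 from 3, and calls with the block rest on pairs read from these same data. With the replicate number as a block, 7 of the 31 genes fell and none rose, where 6.01% of all genes fell and 1.92% rose. Over all genes, 87 rose and 281 fell without the block. The split was 130 and 234 after quantile normalization, and 109 and 214 after centring, and neither gave a call among the 31 genes.

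Ifit2 had 7.54, 8.37 and 8.55 in DMSO and 6.54, 6.32 and 7.10 in PHA+ICG. All treated arrays were lower, and the differences in pairs 1 to 3 were −1.0, −2.05 and −1.46. The difference was −1.50 ± 0.30 (adjusted p = 0.0508) and passed with the block (± 0.21, adjusted p = 0.00169), a 2.83-fold fall. Ifit3 had 6.03, 7.92 and 7.75 against 5.51, 5.90 and 6.63. Its groups overlapped through DMSO replicate 1, yet each pair fell (−1.22, ± 0.50 without the block and ± 0.25 with it, adjusted p = 0.334 and 0.0135). Ifit1 had 6.00, 8.28 and 8.16 against 5.71, 7.14 and 6.83. It too overlapped and fell in each pair (−0.92, adjusted p = 0.654 without and 0.0234 with the block).

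Ifi27l2a had 8.11, 6.80 and 6.63 in DMSO and 6.63, 6.12 and 5.57 in PHA+ICG. The pair differences were −1.48, −0.68 and −1.07, and the mean of −1.07 passed with the block (adjusted p = 0.00575) and not without (0.294). Oasl2 had 6.68, 7.38 and 7.16 against 6.01, 6.47 and 5.94, without overlap (−0.93, adjusted p = 0.0974 without and 0.00792 with the block). Rigi had 8.84, 8.64 and 8.82 against 8.17, 8.22 and 8.12. Its groups were 0.42 apart at the nearest and it passed with the block (−0.60, adjusted p = 0.0471) and not without (0.0961). Cmpk2, a mitochondrial nucleotide kinase, had 5.33, 6.69 and 6.79 against 5.13, 5.41 and 5.05. The treated arrays were even while DMSO replicate 1 was low, and the difference was −1.07 (adjusted p = 0.221 without and 0.0277 with the block). The other Cmpk2 probe set, with a lower mean of 5.34, differed in the opposite direction, by 0.17. Those of Rigi differed by −0.43 and −0.03.

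**Figure D5:**
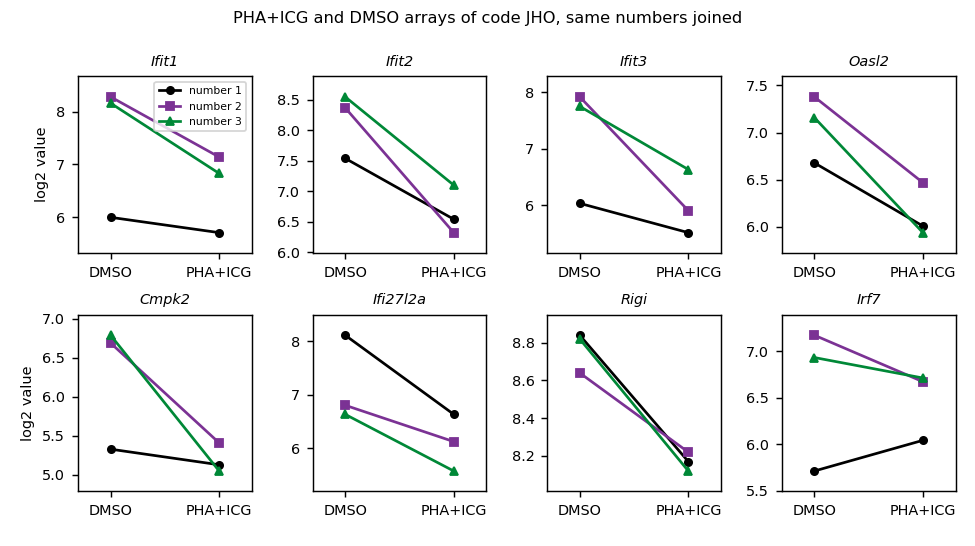
Log2 value (vertical axes) in DMSO (JHO) and PHA+ICG (horizontal axes) for the 7 genes that fell with the replicate number as a block, and for Irf7. Lines join arrays with the same number, a pairing that the labels do not state. All 3 lines slope down in each of the 7 genes, while in Irf7 number 1 rises by 0.33 and numbers 2 and 3 fall by 0.50 and 0.22.

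Across all 3 pairs, 17 of the 31 genes were lower in PHA+ICG each time (54.8%), against 21.7% of all genes, and 1, Ifi35, was higher each time (3.23%), against 17% of all genes. Irf7 had 6.04, 6.67 and 6.71 in PHA+ICG, within the DMSO range of 5.71 to 7.17 (−0.13 ± 0.38, adjusted p = 0.96). Stat2 had 6.34, 6.10 and 6.27 against 6.54, 6.84 and 6.71. All treated values were lower, and the difference of −0.46 ± 0.16 did not pass (adjusted p = 0.233, and 0.141 with the block). Psmb8 had 9.55, 9.47 and 8.76 and overlapped DMSO (−0.34 ± 0.29, adjusted p = 0.763).

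The calls depended on the arrays that stood apart. Without DMSO (JHO) replicate 1, 3 genes fell in PHA+ICG without the block, against 1.4% of all genes: Cmpk2 (−1.54), Ifit2 (−1.81) and Ifit3 (−1.82). Without replicate 1 of both groups, which was tried after the values were seen, 5 fell, against 4.14% of all genes: Cmpk2 (−1.51), Ifit1 (−1.24), Ifit2 (−1.75), Ifit3 (−1.57) and Oasl2 (−1.07). Leukocyte markers were lower in PHA+ICG by 0.83 in the median, with none of 19 passing, and 3 of 12 fibroblast markers fell. All 12 mammary epithelium markers were lower in the mean, by 0.57 in the median and with differences from −1.29 to −0.12, and none passed. Their part in the result was not tested.

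The effect of PHA+ICG in JHO spheres was set against each single effect in JAH spheres. Against the PHA effect, Ifit2 (−1.32 ± 0.33, adjusted p = 0.0461) and Rigi (−0.70 ± 0.16, adjusted p = 0.0323) had lower differences from DMSO in PHA+ICG, as did 1.66% of all genes. The effects themselves were −1.50 under PHA+ICG and −0.19 under PHA for Ifit2, and −0.60 and 0.10 for Rigi, none of which passed without the block. Leaving out 1 array at a time kept the call of Ifit2 in 2 of 12 fits, those without DMSO (JAH) replicate 2 or DMSO (JHO) replicate 1, and lost it in the others with adjusted p of 0.0537 to 0.248. The call of Rigi was kept in 5 of 12, those without DMSO (JAH) replicate 2 or 3, PHA replicate 2, or PHA+ICG replicate 1 or 2, and lost in the others with adjusted p of 0.0507 to 0.183. With the block 6 genes had a lower effect in PHA+ICG, against 3.34% of all genes. Against the ICG effect none passed (0.385% of all genes did) and 10 (32.3%) had an unadjusted p under 0.05, against 7.07% of all genes. With the block Ifit3 (−1.35, adjusted p = 0.0231), Ifit1 (−1.30, 0.0309) and Usp18 (−1.15, 0.0309) had a lower effect in PHA+ICG, against 0.83% of all genes. Under ICG alone these 3 genes were at 0.13, 0.38 and 0.38. Without replicate 1 of both JHO groups the counts were 8 against the ICG effect (1.08% of all genes) and 7 against the PHA effect (2.9%). The treatment and the code differ together in these contrasts and cannot be told apart.

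The rest of the pathway was read from 5 further lists. Of all genes, 13.5% were higher and 12.5% lower in DMSO (JHO) than in DMSO (JAH). Under ICG 11.9% rose and 15% fell, under PHA 3.14% and 7.07%, and under PHA+ICG 0.478% and 1.54%. A list whose count is near these shares is not shown to respond in particular. Of 8 interferon ligand genes measured, none passed between the vehicle groups or under PHA or PHA+ICG, and 1, Ifnz, rose under ICG (0.27 ± 0.07, adjusted p = 0.0209). Ifnb1, the first interferon made after infection, lay at 4.73 to 5.55 on all 15 arrays, below the array medians of 5.74 to 5.93. Ifng lay at 2.93 to 3.74, and Ifna2, Ifna4, Ifna5 and Ifna11 were also below those medians on every array. At such low signal a difference in these ligands could go unseen. Of 15 receptor and JAK-STAT genes, 4 were higher and 5 lower in DMSO (JHO) than in DMSO (JAH), among them Il10rb, a shared receptor chain (−1.46 ± 0.19), Socs3, a feedback inhibitor of JAK signalling (−1.18 ± 0.11), and Ifngr2, a chain of the interferon-γ receptor (1.16 ± 0.14). Under ICG 3 rose and 2 fell, with Jak2 at 0.33 ± 0.06, Socs3 at 0.27 ± 0.06 and Ifngr2 at −0.45 ± 0.11. Under PHA 1 fell, Jak2 (−0.26 ± 0.06), and under PHA+ICG none passed.

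Of 19 genes of nucleic acid sensing and interferon induction, 9 were lower and 1 higher in DMSO (JHO). Irf8, a factor of myeloid cells, fell by 3.06 ± 0.43, Tlr7, an endosomal RNA receptor, by 2.09 ± 0.35, and Tbk1, a kinase that activates Irf3, by 0.81 ± 0.17. ICG gave 1 rise, Adar, an RNA-editing enzyme (0.55 ± 0.09), and 3 falls, with Samhd1, a nucleotide hydrolase, at −0.58 ± 0.08 and Mavs, the adaptor of RIG-I, at −0.28 ± 0.06. Of all genes, 11.9% rose and 15% fell under ICG. PHA gave 2 falls, Tlr7 (−0.41 ± 0.08) and Irf8 (−0.28 ± 0.07), and PHA+ICG gave none.

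A list of 42 other measured interferon-stimulated genes, all outside the 33, had 28 lower and 1 higher in DMSO (JHO), with a median of −0.90. Rtp4 (−3.05 ± 0.27), Epsti1 (−3.05 ± 0.44) and Oas1a (−2.78 ± 0.11) had the largest falls and Isg20, an exonuclease, was the rise (1.43 ± 0.34). ICG gave 6 rises and 12 falls, led by Uba7, the activating enzyme for ISG15 (−1.07 ± 0.11, adjusted p = 8.51e-05), Ifitm2 (−0.90 ± 0.17) and Lgals9 (−0.82 ± 0.11). PHA gave 4 falls, including Isg20 (−0.59 ± 0.08), Lgals9 (−0.54 ± 0.11) and Gbp6 (−0.38 ± 0.06). PHA+ICG gave 2 falls that passed without the block. Lgals9, which encodes galectin-9, had 9.03, 8.67 and 8.56 in DMSO (JHO) and 7.61, 6.91 and 7.22 in PHA+ICG. Its groups were apart (−1.51 ± 0.22, adjusted p = 0.0169). Ifi47, an immunity-related GTPase, had 7.64, 8.09 and 8.02 against 6.57, 6.61 and 6.18, also apart (−1.46 ± 0.20, adjusted p = 0.0126).

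Of 14 genes of MHC class I and II presentation, 11 were lower and none higher in DMSO (JHO), including H2-Aa (−2.97 ± 0.19), a class II chain, Nlrc5 (−2.81 ± 0.21), the activator of class I transcription, and H2-K1 (−1.31 ± 0.27). ICG gave 5 rises and 3 falls, with Psme1, a proteasome activator subunit, at −0.80 ± 0.06 (adjusted p = 1.77e-05) and the peptide trimmer Erap1 at 0.39 ± 0.06. PHA gave 1 rise, Erap1 (0.30 ± 0.06), and 1 fall, Nlrc5 (−0.54 ± 0.07). PHA+ICG gave 1 fall, H2-Ab1 (−1.49 ± 0.27, adjusted p = 0.0349), a class II chain that leukocytes carry, whose values were 7.98, 8.79 and 8.63 in DMSO and 7.41, 6.74 and 6.78 in PHA+ICG.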

How the data were processed

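RNA (250 ng) was measured on mouse expression arrays of 45101 probe sets. Values are log2 intensities as the authors deposited them, and the submitters' processing notes name RMA and MAS5 without roles or versions. Medians per array were 5.74 to 5.93, and whether both title codes were normalized together is not given in the sources used here. Genes were named where a probe set had 1 symbol (34945 probe sets; 932 had several, 9160 none, 64 were controls), keeping the probe set with the highest mean.

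The JAH arrays (9), the JHO arrays (6) and the DMSO arrays (6) were each fitted with limma 3.58.1 in R 4.3.3, and differences between effects with all 15 arrays and array weights by code. The script was tested on simulated data. Genes named with values in every array were the members called, up to 6 per comparison by size, and Ifit1, Irf7, Stat2 and Psmb8, and up to 3 called genes per pathway list. Others singled out were chosen after their values were seen. Members, lists and the fits by code were chosen with earlier results of these data known.

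Same-numbered JHO arrays correlated in their deviations (0.61, 0.36, 0.28) and were treated as pairs, but numbers 2 and 3 also correlated crosswise (0.24, 0.35). The labels state no such pairing. JAH arrays did not (−0.26 to 0.12).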

Additional observations from a re-analysis of the deposited data

Results flagged for a closer look

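In 2 genes the effect of PHA+ICG on JHO spheres differed from that of PHA on JAH spheres by a test of the difference itself. For Ifit2 the difference of effects was −1.32 ± 0.33 on the log2 scale (adjusted p = 0.0461, limma): the effect was −1.50 for PHA+ICG and −0.19 for PHA. All 3 PHA+ICG arrays were below all 3 DMSO (JHO) arrays, while PHA and DMSO (JAH) overlapped. For Rigi it was −0.70 ± 0.16 (adjusted p = 0.0323), with effects of −0.60 for PHA+ICG and 0.10 for PHA. Each group of 3 lay apart from its own DMSO group, below it for PHA+ICG and above it for PHA. With the mean of all probe sets, Rigi gave −0.35 (adjusted p = 0.25). Title code and treatment cannot be told apart in either difference.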

How the results depend on the processing

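The members called between the DMSO groups (23) stayed within 1.5 times under every alternative run, none of which gave each code its own spread. With 1 pooled spread over 15 arrays the members called were 0 for PHA, 2 for ICG, 8 for PHA+ICG and 1 for PHA against ICG, and over all genes 182, 1255, 2413 and 1463, against 1858, 4896, 368 and 4939 as reported; over all genes the differences of the PHA+ICG effect from the ICG and PHA effects numbered 160 and 860, against 70 and 499. With the replicate number as a block, members called were 1 for PHA, 7 for PHA+ICG, and 3 and 6 for the differences from the ICG and PHA effects, and all genes numbered 1202, 1442, 197 and 958. The block took away the calls of Ifih1 under PHA (adjusted p = 0.073) and Bst2 under ICG (0.065), where numbers are only labels. Centring gave 4 members for PHA and 1 for the difference from the PHA effect. The mean of all probe sets gave 2 for PHA+ICG and 1 for the difference from the ICG effect. The filter at a mean of 5 gave 1 for PHA+ICG, 1 for the difference from the PHA effect, and 42 genes for that from the ICG effect. The prior with trend and robust options gave 5 for PHA, 1 for PHA+ICG and 107 genes for the difference from the ICG effect. The cause of these changes was not tested.

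Leaving out each array in turn gave 0 to 3 members for PHA, 10 to 13 for ICG, 0 to 3 for PHA+ICG, 10 to 12 for PHA against ICG, 21 to 27 between DMSO groups, and 0 to 6 for each of the differences from the ICG and PHA effects. Over all genes it gave 1005 to 1691 for PHA, 56 to 389 for PHA+ICG, 2744 to 7811 between DMSO groups, and 1 to 144 and 149 to 719 for the differences from the ICG and PHA effects; the 7811 arose without DMSO (JHO) replicate 1. Without replicate 1 of both JHO groups, chosen after seeing the data, members numbered 5, 8 and 7, and genes 886, 242 and 720, for PHA+ICG and the differences from the ICG and PHA effects. Without single arrays, the sign turned in 5 of the 31 members for PHA, 5 for ICG, 8 for PHA+ICG, 3 for PHA against ICG, 1 between DMSO groups, and 9 and 11 for the differences from the ICG and PHA effects; none of these was called. Among called members and Ifit1, Irf7, Stat2 and Psmb8, the turns for PHA were in Psmb8 (0.02 after quantile normalization, 0.03 after centring, 0.00 with the mean of probe sets), Stat2 (0.01 with the mean of probe sets, −0.15 to 0.02 over left-out arrays) and Ifit1 (−0.07 to 0.08). The other turns among these genes were in Psmb8 under ICG (−0.01 to 0.06), and Irf7 under PHA+ICG (−0.57 to 0.16) and against the ICG effect (−0.60 to 0.13). Of the values of these genes recomputed, 1014 kept direction and side of the threshold, 95 lost their call, 35 gained one and 14 turned.

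Only 3 arrays a group, and the wide JHO spread, limit the tests of PHA+ICG. A member that did not pass was not shown to be unchanged.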

Other observations

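Other cell type markers, read for the same arrays, differed between groups as follows. Their counts too are to be read against the shares of all genes given with the pathway lists. The mean of 8 endothelial markers was 5.45 to 5.54 in DMSO (JAH), 5.16 to 5.21 in PHA, 5.25 to 5.45 in ICG, 5.29 to 5.71 in DMSO (JHO) and 5.11 to 5.34 in PHA+ICG. Under PHA 3 of the 8 fell, under ICG 1 rose and 1 fell, and under PHA+ICG none passed. Pecam1, Emcn, Tie1 and Tek lay below the array medians on every array. Tek, among the falls under PHA, had 3.42 to 3.53 against 3.81 to 3.91 in DMSO (JAH). Between the DMSO groups, Cd34, also found on stromal cells, was higher in JHO (2.38 ± 0.21) and Vwf lower (−2.41 ± 0.31). Of 5 adipocyte markers, Fabp4 fell under ICG (−1.45 ± 0.12) and PHA+ICG (−2.35 ± 0.28). It was lower in DMSO (JHO) than in DMSO (JAH) (−1.02 ± 0.17), and did not pass under PHA. Adipoq rose under ICG (0.31 ± 0.08), at a low signal below every array median, 3.69 to 3.87 against 3.37 to 3.52 in DMSO (JAH).

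Of 12 mammary epithelium markers, 2 rose and 4 fell under PHA, 2 rose and 4 fell under ICG, none passed under PHA+ICG, and 3 were higher and 3 lower in DMSO (JHO) than in DMSO (JAH). Krt17, a basal keratin, fell by 1.62 ± 0.13 on the log2 scale under PHA (adjusted p = 8.32e-05, limma).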
